A study of Mus musculus with 6 samples.

Results

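Caspases, the apoptosome scaffold Apaf1 and the inhibitors Xiap and Cflar form the core protease machinery of apoptosis, and their transcripts were followed here in C2C12, an established myoblast line of the mouse. The 8 genes were Casp2, Casp6, Casp8, Casp9, Casp12, Apaf1, Xiap and Cflar. They were represented by all probe sets that the platform annotation assigns to 1 gene alone, which gave 23 of the 34945 such probe sets and 8 of 18193 genes. Casp2 and Casp8 had 1 probe set each, Casp6, Casp12 and Apaf1 had 2 each, Casp9 had 3, Cflar had 5 and Xiap had 7.

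The line carries integrin alpha7, a subunit of a muscle receptor for laminin, under tetracycline control. One group of 3 arrays came from cells given tetracycline at 1 µg/ml for 36 h (labelled induced), and the other group of 3 came from the same line kept for 36 h with none (noninduced). Both groups stayed undifferentiated in medium with 20% serum and chick embryo extract, so the serum and the construct are shared by all arrays. The 3 samples of a group are described as separate biological samples. Tetracycline itself was present in the treated group only, and its effect cannot be told apart from that of the construct. Whether the line is a single clone is not given in the sources used here.

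Caspases are cysteine proteases made as inactive precursors. Casp8 and Casp9 start apoptosis from death receptors and from mitochondria, Casp6 is among the caspases that cut the target proteins, and Cflar and Xiap hold the cascade in check. Activation is by dimerisation and cleavage of the protein, which an mRNA array does not measure. In C2C12 cells, as background, limited caspase activity also accompanies differentiation of myoblasts into myotubes.

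The upstream sequences of the genes differ widely in composition. RefSeq windows of 250 bases before an annotated start (build GRCm38.p6) were at hand for all 8 genes, 10 windows in all because Xiap has 3. Apaf1 had 42 CpG dinucleotides, the most of the 10, and Casp12 had 1, as did 2 windows of Xiap, while its other window had 13. The median over all 32851 windows of the same length was 6. Casp9 had 25, Casp2 had 17, Casp6 had 11, Cflar had 7 and Casp8 had 5. The GC box GGGCGG, searched on both strands, stood in 6 of the 10 windows and in 32.7% of all windows. TATAAA, also searched on both strands, stood in 2 of the 10, those of Cflar and 1 of Xiap, and in 12.4% of all. The letters TGATGNAA, the composite element that ATF4 and CHOP are known to bind, were searched on both strands as well. They stood in 0 of the 10 windows and in 3.45% of all. The CpG-richest window and a CpG-poor one are printed to show this contrast, each from 5′ to 3′ on the strand of the gene, with every CpG in capitals. That of Apaf1 lies at chr10:91082744-91082993 on the minus strand and that of Casp12 at chr9:5345226-5345475 on the plus strand.
Apaf1: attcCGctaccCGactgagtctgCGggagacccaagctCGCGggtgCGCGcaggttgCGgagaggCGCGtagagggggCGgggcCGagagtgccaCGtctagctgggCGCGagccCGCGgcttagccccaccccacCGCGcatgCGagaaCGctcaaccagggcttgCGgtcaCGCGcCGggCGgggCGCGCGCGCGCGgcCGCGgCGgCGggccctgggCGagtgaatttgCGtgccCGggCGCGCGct
Casp12: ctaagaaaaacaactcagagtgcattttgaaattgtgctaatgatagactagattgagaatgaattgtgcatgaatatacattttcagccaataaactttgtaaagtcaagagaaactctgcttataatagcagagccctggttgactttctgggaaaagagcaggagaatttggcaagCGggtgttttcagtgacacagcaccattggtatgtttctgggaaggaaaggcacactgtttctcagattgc

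Itga7, the gene the construct is meant to raise, gave signals of 675, 727 and 676 on the arrays labelled induced 1, 2 and 3, against 811, 778 and 786 on noninduced arrays 1, 2 and 3. The signals labelled induced were the 3 lowest (log2 fold change -0.19, limma adjusted p = 0.178). Why Itga7 was not higher there was not tested, nor whether this probe set detects the construct's transcript. The treated arrays are therefore named by their label throughout, and every direction below rests on that label. Per array the median signal was 22.8 to 24.8 on those labelled induced and 24.9 to 27.7 on the noninduced ones. Fluidics runs were inferred from gaps between hybridisation times. The first of these runs held induced replicate 1 beside all 3 noninduced arrays, and the second held induced replicates 2 and 3. Scanning ran through the noninduced arrays before those labelled induced, so an effect of scan order cannot be told apart from that of the group.

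None of the tested caspase, Apaf1, Xiap and Cflar probe sets passed the test over all probe sets, which few probe sets of the array passed. Of the 23 probe sets, 18 were brighter on average than the median probe set of the array (a signal near 22.6) and were tested on the scale log2(signal + 16). Of these 18, 0 passed an adjusted p of 0.05 in limma, against 0.2% of all 22518 tested probe sets (45), and 0 had an unadjusted p under 0.05, against 14.7% of all. The groups were fully separate in 1 of the 18 (5.56%), against 20.3% of all, and that 1 was a dim Xiap probe set. The log2 fold changes, labelled induced over noninduced, ran from -0.31 to 0.19, with 8 positive and 10 negative. Their median was -0.0043, beside -0.01 over all tested probe sets. In 12 of 18 the change lay within 0.1 of 0, as it did in 45.9% of all. Fewer cells expressing a gene and less RNA per cell cannot be told apart in such bulk samples.

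**Figure D1:**
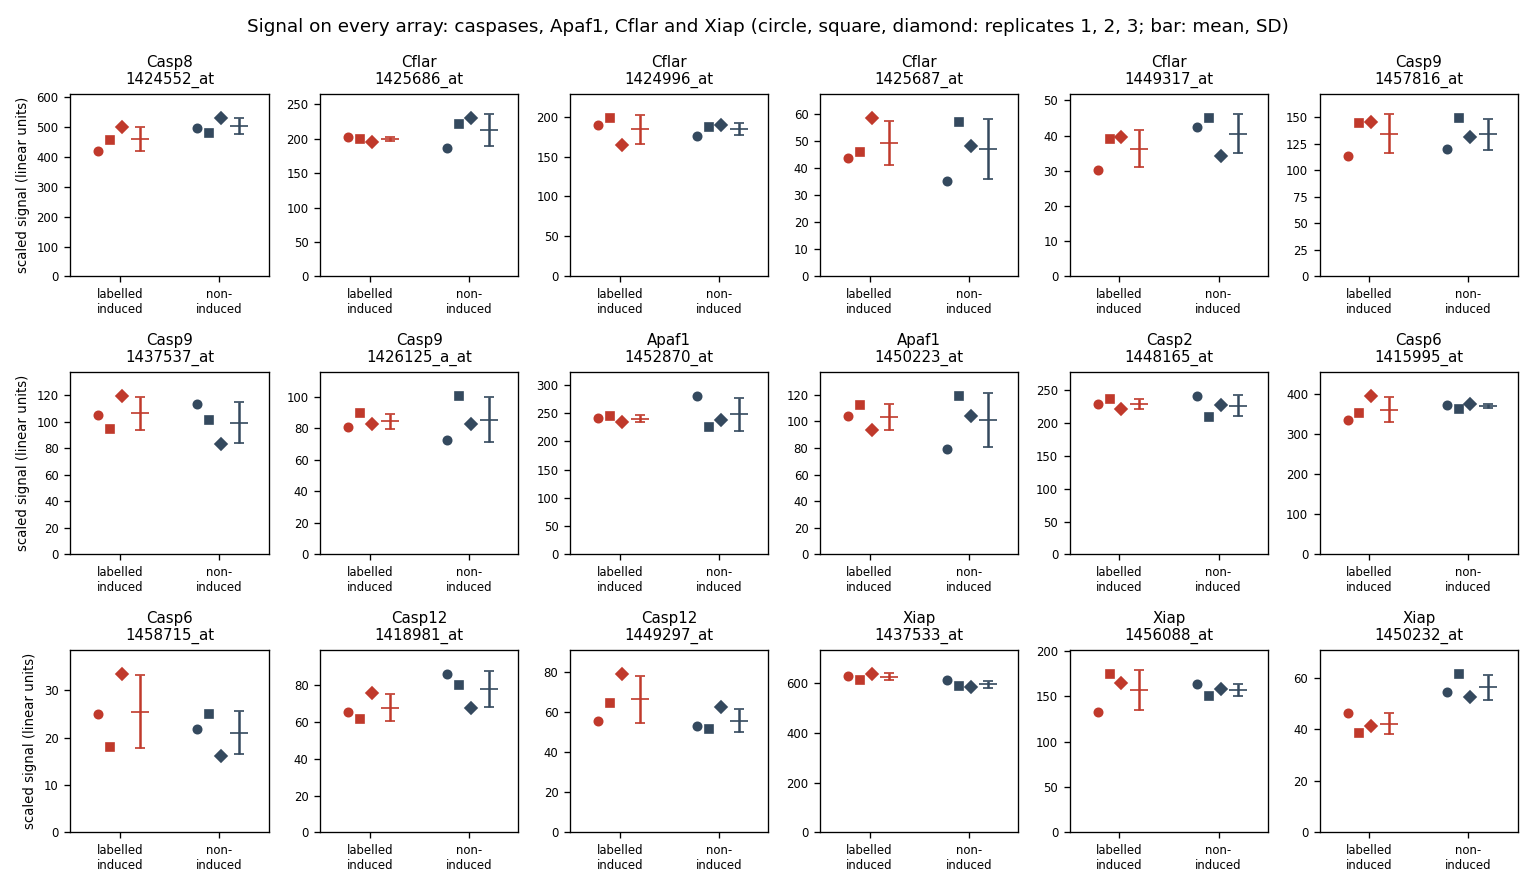
Scaled signal (linear units, axis from 0) on each array for the 18 probe sets above the filter, arrays labelled induced at left and noninduced arrays at right in every panel. Circles, squares and diamonds are replicates 1, 2 and 3, and the bar beside them is the mean with its SD (n = 3). The groups overlap in every panel except the last, Xiap 1450232_at, where signals of 38.7 to 46.5 on the arrays labelled induced lie below 52.6 to 61.5 on the noninduced ones.

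The intervals give the size of change that the arrays could resolve. The 95% interval of the change lay within 1.5-fold in either direction for 16 of 18 probe sets (80.1% of all tested) and within 1.25-fold for 10 of them. For 1.25-fold the share over all tested probe sets was not computed. These folds are of signal + 16, and with a pseudocount of 1 the intervals lay within 1.5-fold for 13 of 18 (66.1% of all). With the fluidics run as a block, where the contrast rests on induced replicate 1, they did so for 13 of 18 as well (58.0% of all). At the pseudocount of 16 and without a block, the intervals of Casp6 1458715_at and Xiap 1450232_at went beyond 1.5-fold, and both probe sets are dim. Standard errors had a median of 0.127 on the log2 scale for these probe sets and 0.117 for all tested ones, so the caspase machinery was measured about as tightly as the rest of the array.

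**Figure D2:**
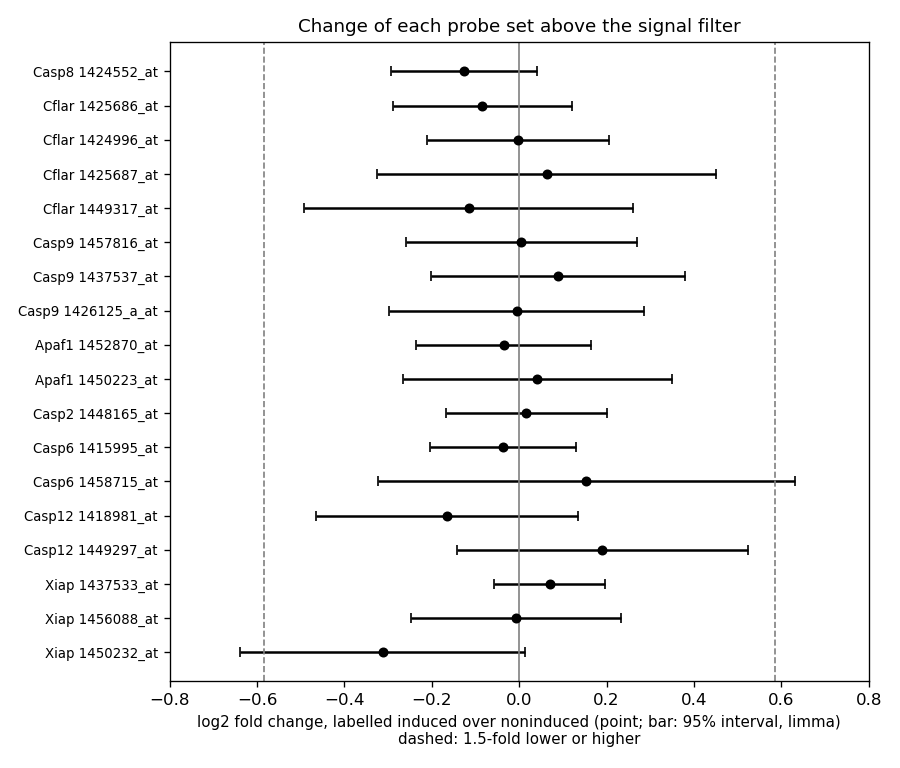
Log2 fold change of each of the 18 tested probe sets, arrays labelled induced over noninduced, with 95% intervals from limma and dashed lines at 1.5-fold. Every interval includes 0, and those of Casp6 1458715_at (up to 0.63) and Xiap 1450232_at (down to -0.64) cross a dashed line.

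Casp8, the initiator that death receptors recruit, had the lowest p in limma among the caspases, while both Casp12 probe sets had larger changes and a lower exact permutation p. Its probe set 1424552_at gave 420, 457 and 501 on arrays labelled induced 1, 2 and 3, against 496, 478 and 531 on noninduced arrays 1, 2 and 3. Induced replicate 1 was the lowest of the 6 arrays, and induced replicate 3 lay within the noninduced range. The means were 459 ± 40.3 on the arrays labelled induced and 502 ± 26.5 on the noninduced ones (SD, n = 3 each), 8.49% apart. On the log2 scale this was a change of -0.13, with an SE of 0.077 and a 95% interval of -0.29 to 0.04. It had p = 0.477 after adjustment in limma, and an exact two-sided permutation test gave p = 0.3, where 0.1 is the smallest p possible for 3 against 3 arrays. The change was -0.19 without induced replicate 3, where the unadjusted p was 0.0337 and limma's adjusted p 0.306. With each array centred on its median it was -0.03.

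Cflar (c-FLIP), a relative of Casp8 that lacks protease activity, competes with it at the death receptor, and the mouse genes have neighbouring places on chromosome 1. The probe set 1425686_at gave 202, 200 and 196 on arrays labelled induced, against 187, 222 and 230 on noninduced arrays. The values labelled induced sat close together inside the noninduced range, and the change was -0.08 (95% interval -0.29 to 0.12, limma adjusted p = 0.726). Its probe set 1424996_at gave 190, 198 and 164 on arrays labelled induced, against 176, 187 and 190 on noninduced arrays. Both groups averaged 184, with an SD of 17.8 on arrays labelled induced and 7.59 on noninduced ones, and the change was 0.00 (95% interval -0.21 to 0.21). A dimmer probe set, 1425687_at, gave 43.7, 45.9 and 58.7 on arrays labelled induced, against 35.3, 57.3 and 48.4 on noninduced arrays. The last tested one, 1449317_at, gave 30.1, 39.0 and 39.5 on arrays labelled induced, against 42.3, 45.0 and 34.3 on noninduced arrays. The changes of 1425687_at and 1449317_at were 0.06 and -0.12, with adjusted p of 0.904 and 0.803 in limma, and the groups overlapped in all 4 tested probe sets. The fifth, 1453482_at, lay below the filter, at 16.1, 14.2 and 6.7 on arrays labelled induced, against 17.7, 15.6 and 16.5 on noninduced arrays.

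Casp9, the initiator of the mitochondrial pathway, did not differ past the test with any of 3 probe sets. With 1457816_at the arrays labelled induced gave 113, 145 and 145, against 120, 149 and 131 on noninduced arrays, a change of 0.00 (95% interval -0.26 to 0.27). With 1437537_at they gave 105, 94.4 and 119, against 113, 101 and 83.1 on noninduced arrays, a change of 0.09 (95% interval -0.20 to 0.38). With 1426125_a_at they gave 80.7, 89.6 and 82.3, against 72.3, 100.5 and 82.8 on noninduced arrays, a change of -0.01 (95% interval -0.30 to 0.29). The groups overlapped in each, and limma's adjusted p was 0.992, 0.804 and 0.991.

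Apaf1, which binds cytochrome c and assembles Casp9 into the apoptosome, varied more among noninduced arrays than between the groups. Its probe set 1452870_at gave 241, 246 and 234 on arrays labelled induced, against 281, 226 and 237 on noninduced arrays. The SD was 5.65 on the arrays labelled induced and 29.03 on the noninduced ones, and noninduced replicate 1 was the highest of the 6. The other probe set, 1450223_at, gave 104, 112 and 93.4 on arrays labelled induced, against 79.0, 119 and 104 on noninduced arrays, and here noninduced replicate 1 was the lowest. The changes were -0.04 (95% interval -0.24 to 0.16) and 0.04 (95% interval -0.27 to 0.35), with adjusted p of 0.894 and 0.924 in limma.

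Casp2, the initiator that the PIDDosome (a complex of Pidd1 and Cradd) activates, did not differ between the groups past the test. Its single probe set, 1448165_at, gave 229, 236 and 220 on arrays labelled induced, against 241, 210 and 227 on noninduced arrays. The means were 228 ± 7.67 on the arrays labelled induced and 226 ± 15.8 on the noninduced ones (SD, n = 3 each), with a change of 0.02 (95% interval -0.17 to 0.20, limma adjusted p = 0.953).

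Casp6, an executioner known for cutting nuclear lamins, gave 334, 353 and 395 with its bright probe set 1415995_at on arrays labelled induced, against 373, 363 and 374 on noninduced arrays. The arrays labelled induced straddled the tight noninduced values, with an SD of 31.2 for induced against 5.86 for noninduced, and the change was -0.04 (95% interval -0.21 to 0.13, limma adjusted p = 0.863). Its dim probe set 1458715_at, just above the filter, gave 24.9, 18.1 and 33.4 on arrays labelled induced, against 21.9, 25.0 and 16.2 on noninduced arrays. Its change of 0.15 had a 95% interval of -0.32 to 0.63 and an adjusted p of 0.792 in limma.

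Casp12, a mouse caspase of the inflammatory group that has been tied to endoplasmic reticulum stress, had 2 probe sets with opposite signs. With 1418981_at the arrays labelled induced gave 65.4, 61.6 and 75.8, against 86.1, 80.2 and 67.3 on noninduced arrays, a change of -0.17 (95% interval -0.47 to 0.13). With 1449297_at they gave 55.5, 64.4 and 79.2, against 53.3, 51.7 and 62.5 on noninduced arrays, a change of 0.19 (95% interval -0.14 to 0.52), the highest of the 18. Replicate 3 of the arrays labelled induced was the highest of its group in both, and the groups overlapped in both. Limma's adjusted p was 0.620 and 0.605, and the exact permutation test gave p = 0.2 for each. With 1449297_at the change was 0.08 without induced replicate 3 and 0.00 within the first fluidics run alone, which leaves induced replicate 1 as the single treated array.

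Xiap, which binds and blocks active caspases, had the lowest of the 18 changes with one probe set and a small positive one with its brightest. Its bright probe set 1437533_at gave 629, 612 and 639 on arrays labelled induced, against 613, 589 and 586 on noninduced arrays. The means were 627 ± 13.6 on the arrays labelled induced and 596 ± 14.8 on the noninduced ones (SD, n = 3 each), and the ranges overlapped only between induced replicate 2 and noninduced replicate 1. The change was 0.07 (SE 0.059, 95% interval -0.06 to 0.20). It had p = 0.625 after adjustment in limma, and the exact permutation test gave p = 0.2. With each array centred on its median it was 0.16, the groups no longer overlapped, and limma's adjusted p was 0.270. Over the 19 settings fitted, the main one included, this change was positive throughout, from 0.05 to 0.16.

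The probe set Xiap 1450232_at gave 46.5, 38.7 and 41.4 on arrays labelled induced, against 54.6, 61.5 and 52.6 on noninduced arrays. Every value labelled induced was lower than every noninduced one, with means of 42.2 ± 3.96 for induced and 56.2 ± 4.69 for noninduced (SD, n = 3 each), 25.0% apart. The change was -0.31 (SE 0.150, 95% interval -0.64 to 0.01). Limma gave p = 0.0590, or 0.362 after adjustment, and the exact permutation test gave its smallest possible p, 0.1. It ranged from -0.41 to -0.18 over the 19 settings. Limma's adjusted p was 0.306 at its lowest. The third tested probe set, 1456088_at, gave 133, 175 and 164 on arrays labelled induced, against 163, 150 and 158 on noninduced arrays, a change of -0.01 (95% interval -0.25 to 0.23). Both groups averaged 157, and induced replicate 1 was the lowest of the 6 arrays.

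The remaining 4 Xiap probe sets lay below the filter and were not tested. On arrays labelled induced, 1421394_a_at gave 9.64, 25.4 and 22.3, against 10.4, 9.35 and 14.0 on noninduced arrays, and 1450231_a_at gave 19.7, 31.4 and 14.8, against 10.7, 13.0 and 19.1 on noninduced arrays. The other two, 1426636_a_at and 1453385_at, ran from 4.48 to 21.5 on arrays labelled induced and from 1.36 to 25.3 on noninduced arrays. The groups overlapped in all 4.

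Among the 15 pairs of tested probe sets within a gene, 10 had changes of opposite sign (66.7%), beside 42.5% of all 15250 such pairs on the array. Pairs of the same gene can share a probe set, so they are not independent, and several of the signs belong to changes near 0. The per-array log2 difference between the probe sets separated the groups in 1 of the 15 pairs, Xiap 1437533_at and 1450232_at. Their changes differed by 0.38 (exact two-sided permutation p = 0.1, and 0.9 after Benjamini-Hochberg adjustment over the 15 pairs). The share of separated pairs over the whole array was not computed, so this count has no background to be read against. The Casp12 pair differed by -0.36 (p = 0.2 in the same exact permutation test). What part of each transcript a probe set detects was not analysed here.

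Within the first fluidics run the single array labelled induced lay below all 3 noninduced arrays in 7 of 17 probe sets tested there and above them in 1. Over all tested probe sets the shares were 27.9% below and 26.9% above. The largest changes of induced replicate 1 in that run were -0.29 for Cflar 1449317_at, -0.25 for Casp8, -0.22 for Xiap 1456088_at and -0.21 for both Casp9 1457816_at and Xiap 1450232_at. These values rest on 1 treated array and have no replicate check in that group. In the second run no noninduced array was hybridised, so it gives no comparison.

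**Figure D3:**
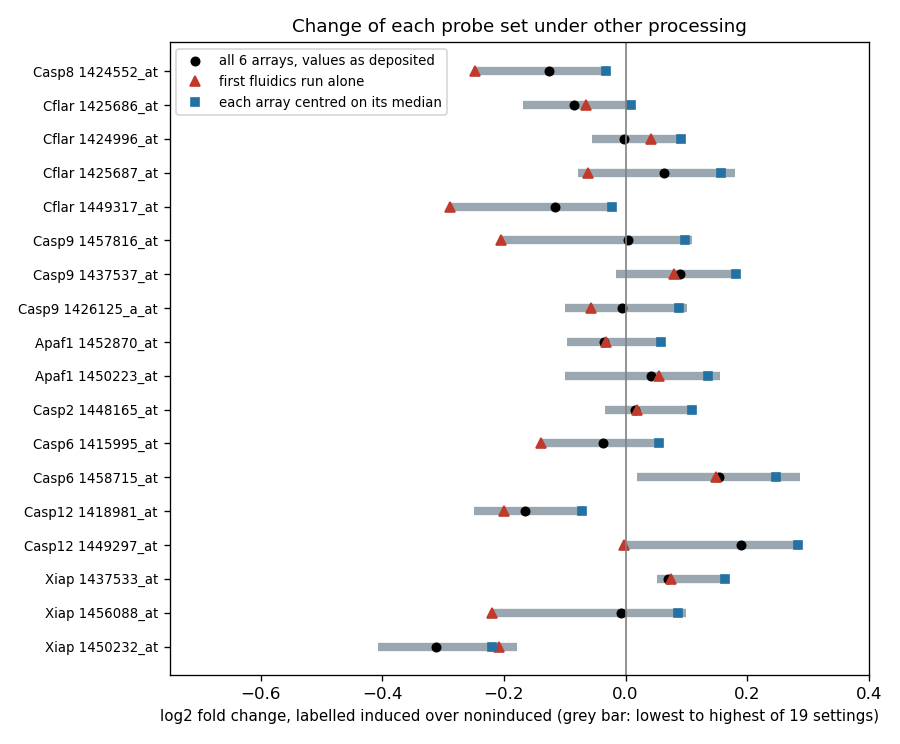
Log2 fold change of each of the 18 probe sets, arrays labelled induced over noninduced, with the values as deposited (black), within the first fluidics run alone (red triangles) and with each array centred on its median (blue squares). Grey bars span the lowest to the highest of 19 settings. Casp8, Cflar 1449317_at, Casp12 1418981_at and Xiap 1450232_at stay below 0 and Casp6 1458715_at and Xiap 1437533_at above it, while the other 12 bars reach or cross 0.

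The genes whose pattern over the 6 arrays was most like that of Xiap 1450232_at, the tested probe set here with the lowest unadjusted p, were Fkbp14, Atxn1l and Cdkn2aipnl. Pearson's r of log2(signal + 16) was 0.997, 0.996 and 0.995. These are the highest of 19807 probe sets searched over only 6 arrays that share the group difference, so they are a description of likeness alone. Their own log2 fold changes were -0.28, -0.47 and -0.14, none past the adjusted test.

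Other genes of the death pathways did not pass the test either. Of 58 tested genes from 7 lists, each taken with its brightest probe set, 0 passed the adjusted test in limma, against 0.307% of all 10757 genes. At an unadjusted p under 0.05 there were 9, beside 15.9% of all genes. Of these, 4 were higher with the label induced, as were 7.97% of all genes, and 5 were lower, as were 7.98% of all. With each array centred on its median the same counts were 13 higher, beside 18.4% of all genes, and 0 lower, beside 1.94% of all. The groups did not overlap in 14 of the 58, with 5 higher and 9 lower on arrays labelled induced, beside 22.4% of all genes in either direction. The changes were positive in 29 and negative in 29, and their median was 0.00, beside -0.01 over all genes.

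**Figure D4:**
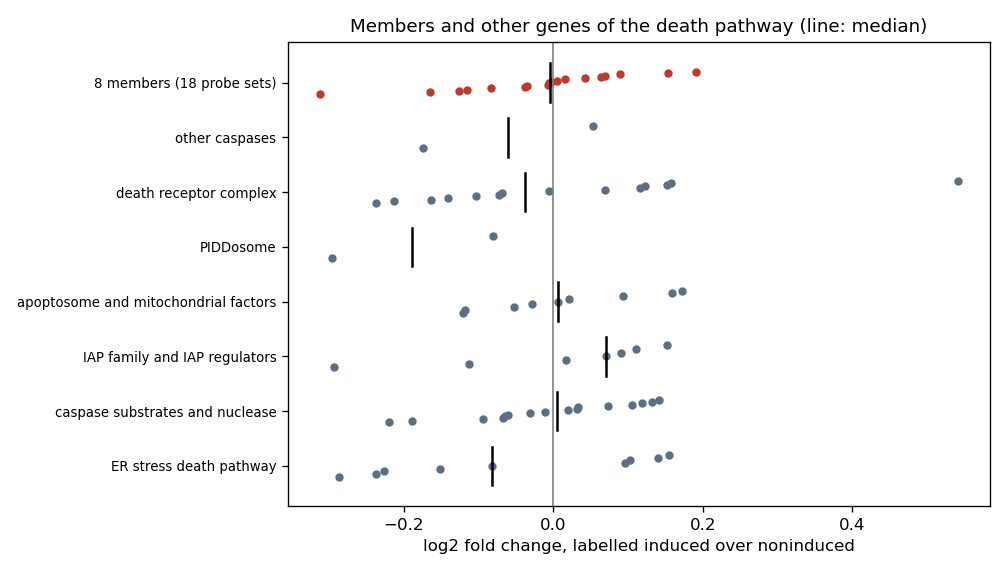
Log2 fold change, arrays labelled induced over noninduced, of the 18 member probe sets (top row, red) and of the tested genes of 7 death pathway lists, with a black line at each median. Each point is 1 probe set or gene, and Traf2 stands in 2 lists. Medians lie between -0.19 (2 genes) and 0.07, and Fas, at 0.54, is the point farthest to the right.

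At the death receptors, 14 genes were tested and none passed (median -0.04, 6 positive and 8 negative). Fas, a receptor that recruits Casp8, was dim, at 34.5, 24.2 and 33.9 on arrays labelled induced, against 22.8, 3.11 and 28.2 on noninduced arrays. Noninduced replicate 2 stood far below the rest, and the change of 0.54 had a 95% interval of -0.10 to 1.19 (limma adjusted p = 0.423). Traf2, an adaptor of TNF receptors, gave 134, 149 and 134 on arrays labelled induced, against 170, 172 and 157 on noninduced arrays, with no overlap (-0.24, limma adjusted p = 0.282). The bright members Faf1, a Fas-associated factor, and Tnfrsf1a, the main TNF receptor, had changes of 0.16 and -0.07 (adjusted p = 0.295 and 0.746 in limma). For Faf1 the groups did not overlap either. In the PIDDosome, Pidd1 was at -0.30 and Cradd at -0.08, with adjusted p of 0.472 and 0.799 in limma.

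Among 9 genes of the apoptosome and of mitochondrial death factors, none passed (median 0.01). Cycs, cytochrome c, gave 5352, 5327 and 4755 on arrays labelled induced, against 4897, 4182 and 4617 on noninduced arrays, a change of 0.17 with overlapping groups (limma adjusted p = 0.237). Pdcd6ip (ALIX) was at 0.16 and the bright chaperone gene Hspa4 at -0.03. None of 7 tested genes of the IAP family and its regulators passed either (median 0.07). Birc5, survivin, and Birc6, a giant ubiquitin ligase, were at 0.02 and 0.11, while Xaf1, an antagonist of Xiap, was at -0.29 and Rffl, a ubiquitin ligase, at 0.15.

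The 16 genes of caspase substrates and of the nuclease they release had a median of 0.00, with 8 changes in each direction and none past the test. Acin1, a substrate linked to chromatin condensation, gave 352, 361 and 326 on arrays labelled induced, against 408, 410 and 399 on noninduced arrays. Those groups did not overlap, and the change was -0.22 (SE 0.070, limma adjusted p = 0.192). Lmnb1, lamin B1, was at -0.19 without overlap (limma adjusted p = 0.225), and the bright substrates Lmna and Gsn, lamin A/C and gelsolin, were at -0.01 and 0.11.

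In the endoplasmic reticulum stress list, 9 genes were tested and none passed (median -0.08). Eif2ak3, the stress sensor PERK, gave 142, 142 and 157 on arrays labelled induced, against 159, 211 and 181 on noninduced arrays, a change of -0.29 (limma adjusted p = 0.262). Bcap31, a reticulum protein cut by Casp8, was at -0.15, and Rtn4, a reticulon of the reticulum membrane, at 0.14 (adjusted p = 0.228 and 0.194 in limma). The groups did not overlap for Eif2ak3, Bcap31 and Rtn4. With each array centred on its median, Rtn4 was at 0.23 with an adjusted p of 0.0464 in limma. In the list of other caspases and a caspase-associated gene, 2 of 6 genes were tested. Casp14, a caspase of skin, was at -0.17 and Casp8ap2, a Casp8-associated nuclear protein, at 0.05.

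Markers of the labelled cell type were present. Of 8 myoblast markers 7 lay above the filter, with summed signals of 6635 to 6913 on arrays labelled induced and 6858 to 6914 on noninduced arrays, and Msc was the marker below it. Of 6 markers of differentiated muscle 2 lay above the filter (Acta1 and Mylpf), and the sums of 268 to 290 on arrays labelled induced and 249.6 to 304 on noninduced arrays overlapped. The macrophage list had 3 of 6 genes above the filter, with sums of 129 to 151 on arrays labelled induced and 159 to 184 on noninduced arrays, which did not overlap. Its members above the filter, Csf1r, Cd68 and Adgre1, had changes of -0.26, -0.03 and -0.25 (brightest probe sets), and their part in the results was not tested. Ptprc, the defining leukocyte marker, lay below the filter with both probe sets. Its means were 5.77 on arrays labelled induced and 4.76 on noninduced arrays with 1422124_a_at, and 2.64 and 4.22 with 1440165_at. Fibroblast, endothelial and adipocyte lists each had 1 gene above the filter. That of the fibroblast list, Pdgfra, was at 0.56 with its brightest probe set, 1421917_at, without overlap (limma adjusted p = 0.194). Its probe set 1421916_at was at -0.15 with overlap. The groups also did not overlap for the brightest probe sets of Myod1 (-0.17), Chrna1 (-0.12), Ncam1 (0.22) and Acta1 (0.25). What these changes reflect was not tested, and 0 genes of any marker list passed the adjusted test.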

How the data were processed

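Total RNA of 6 samples was hybridised to 1 Affymetrix array of the type Mouse430_2 each, per the file headers. The deposited values are linear signal intensity per probe set, made by the authors, and GCOS 1.1.1 is the tool that the submitters' processing notes name. Its settings and any detection calls were not used here. With 2% trimmed off both ends, every array had a mean of 150.0, so each intensity is relative to its array. The instrument records (unit other), per the file headers, gave hybridisation times and scan order. Fluidics runs were inferred here, with a gap of over 60 minutes between hybridisation times taken as the start of a new run.

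The 64 control probe sets were set aside, leaving 45037. Gene names came from the platform annotation (34945 with 1 gene, 932 with several, 9160 not listed). Values were taken to log2(value + 16), which understates changes of dim probe sets. The 22518 probe sets above the median entered 1 linear model per probe set (limma 3.58.1, run in R 4.3.3), whose variances were moderated along a trend with signal, and p-values were adjusted over all of them by Benjamini-Hochberg. Single values had exact permutation tests (SciPy 1.17.1). Precision is limited by the number of arrays. The steps were tested on simulated data.

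Samples were grouped by title. Same-numbered arrays did not deviate together (r = 0.0127, -0.062 and -0.0053 for numbers 1, 2 and 3), so the numbers were not used as pairs. The members, lists and tests were chosen with earlier results of these data known. Named are all members; of each list the genes past the test, 2 by size of change and 2 by highest signal; 3 genes most like the member of lowest p; and Itga7. As alternatives the arrays were quantile-normalized or centred on their medians, the filter was dropped or set at the 75th percentile, and the pseudocount was 1 or 64. The model was also run with robust moderation, with array weights, without the trend, with a block (replicate number or fluidics run), on the first run only, without each array, at a threshold of 0.10 and on gene means over probe sets.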

Additional observations from a re-analysis of the deposited data

How the results depend on the processing

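No probe set of the caspases, Apaf1, Xiap or Cflar passed an adjusted p of 0.05 under any of the 18 alternative fits, nor 0.10 in the fit reported. In 6 of those fits 0 or 1 of all probe sets passed (0 without a variance trend, with the fluidics block, in the first run and without induced replicate 1; 1 with no filter and without noninduced replicate 2), so they say nothing about the members. The other 12 had 7 to 306 calls over all. These too are few beside the probe sets tested, so 0 among the members is no sign of stability there either. Median centring took the members' median change to 0.089, in place of -0.0043, and their positive changes to 14 of 18, in place of 8; over all probe sets the median went to 0.08. At an unadjusted p under 0.05 the count of 0, beside 14.7% of all probe sets, became 1 without a variance trend (Xiap 1450232_at, beside 12.5% of all). With a block for the fluidics run it became 1 (Casp8, beside 8.52% of all), in a contrast that rests on induced replicate 1. In the first run, which holds the same contrast, the change of Casp8 was -0.25. Leaving out 1 array gave 0 to 1 (Casp8 without induced replicate 3, beside 14.2% of all). The replicate block gave 0 on both counts. Separate groups, 1 probe set here, numbered 2 after median centring (23.2% of all probe sets), 0 with a filter at the 75th percentile, which drops Xiap 1450232_at (25.5%), and 8 in the first run, with 1 treated array (54.8%). Leaving out 1 array gave 1 to 4, beside 29.3% to 32.4% of all against 20.3% with all arrays, with 3 without noninduced replicate 1, 4 without noninduced replicate 3, 3 without induced replicate 1, 2 without induced replicate 2 and 4 without induced replicate 3.

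Among the 58 pathway genes, 1 (Rtn4) passed the adjusted test after median centring and 0 under the other fits. The 9 at an unadjusted p under 0.05 became 3 without a variance trend (12.5% of all genes, against 15.9%), 3 with the run as a block (9.12%), 3 in the first run alone (9.23%) and 3 on gene means over probe sets (15.3%). Leaving out 1 array gave 4 to 13, with 4 without induced replicate 1 (12.2% of all genes) and 4 without induced replicate 2 (12.9%). The 13 were found without induced replicate 3, with 8 higher and 5 lower, beside 15.4% of all genes.

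Signs turned for changes within 0.1 of 0 and for Casp12 1449297_at, at 0.19, and the cause was not tested. After median centring the log2 fold changes became 0.056 for Casp6 1415995_at, 0.088 for Casp9 1426125_a_at, 0.057 for Apaf1 1452870_at, 0.086 for Xiap 1456088_at, 0.0093 for Cflar 1425686_at and 0.090 for Cflar 1424996_at. Quantile normalization gave 0.00035 for Casp9 1426125_a_at. Array weights gave -0.0027 for Casp9 1457816_at, 0.011 for Casp9 1426125_a_at and 0.010 for Cflar 1424996_at. The fluidics run as a block and the first run alone gave the same values, -0.21 for Casp9 1457816_at, -0.0028 for Casp12 1449297_at, 0.041 for Cflar 1424996_at and -0.061 for Cflar 1425687_at. Leaving out 1 array gave -0.033 to 0.061 for Casp2, -0.10 to 0.013 for Casp6 1415995_at, -0.061 to 0.11 for Casp9 1457816_at, -0.016 to 0.18 for Casp9 1437537_at and -0.099 to 0.10 for Casp9 1426125_a_at. It gave -0.097 to 0.052 for Apaf1 1452870_at, -0.10 to 0.16 for Apaf1 1450223_at, -0.080 to 0.10 for Xiap 1456088_at, -0.055 to 0.071 for Cflar 1424996_at and -0.078 to 0.18 for Cflar 1425687_at.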
